A study of Mus musculus with 27 samples.

Results

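The signals described here are 10 genes that skin keratinocytes use to alert and recruit other cells: Il1a, Il1b, Il18 and Il33 of the interleukin-1 family, the brakes Il1rn and Il1r2, the cytokine Tslp, and the chemokines Cxcl1, Cxcl2 and Ccl20. They were chosen by symbol, with no measured value in the rule, and all 10 had a row among the 51906 genes of the RNA-seq table and among the 32285 genes of the single-cell matrices. Hair follicle stem cells (HFSCs) were taken from telogen back skin at postnatal day 55 of wild-type mice and of mice with Sox9-CreER, Rxra fl/fl and a Rosa26-YFP reporter (Rxra cKO), and were grown in 3D culture after expansion on feeder cells. RNA was sequenced from each line in a medium with serum (FBS) and in a serum-free B-27 medium that held all-trans retinoic acid and the protein kinase C inhibitor Go6976 (atRA+PKCi), from 2 mice per genotype, giving 8 libraries of 25150300 to 35879800 estimated counts. The media differed in serum, retinoic acid and PKC inhibitor together, and also in supplements, so these components cannot be told apart. By the study's methods the serum-free medium held the B-27 supplement and cholesterol-cyclodextrin. The 3D cultures first grew in serum medium with EGF or FGF10, before the change to serum-free medium. The methods do not spell out the base of the serum medium. The single-cell libraries came from the back skin of 2 wild-type mice at postnatal day 32 (late anagen) and from HFSC lines of 2 mice grown under hashtagged conditions. Sox9-CreER acts in hair follicle stem cells and other Sox9-expressing epithelial cells, and each library is the line of 1 mouse.

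The labels were checked first. Rxra itself measured 149 and 122 CPM (counts scaled to a common library total, with TMM factors) in the wild-type libraries in FBS and 147 and 143 CPM in those in atRA+PKCi, against 97.2 and 95.7 CPM in the libraries labelled Rxra cKO in FBS and 148 and 145 CPM in those labelled Rxra cKO in atRA+PKCi. The labelled cKO was thus 1.41-fold lower than wild-type in FBS (log2 fold change -0.49, SE 0.0917, adjusted p = 0.00264 in edgeR's quasi-likelihood test with Benjamini-Hochberg adjustment), while in atRA+PKCi the log2 difference was 0.01 (SE 0.0907, adjusted p = 0.927). Counts over a whole gene include exons outside a floxed interval and do not check the deleted part alone, so the directions between genotypes given here rest on the labels. The T cell receptor gene Trbc2 was at 0 in all 4 wild-type libraries and between 4.64 and 7.61 CPM in all 4 libraries labelled Rxra cKO. The keratinocyte marker Krt14 was high in every library, from 5718 to 22350 CPM, whereas the pan-leukocyte gene Ptprc did not exceed 0.144 CPM and the dermal collagen gene Col1a1 did not exceed 3.36 CPM. The cultures were therefore epithelial by these markers.

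Interleukin-1α (Il1a) is held ready-made in keratinocytes and acts when the cells are damaged, interleukin-1β (Il1b) and interleukin-18 (Il18) are made as precursors that are cut before they act, and interleukin-33 (Il33) is a nuclear alarm protein. Il1rn encodes the interleukin-1 receptor antagonist and Il1r2 a decoy receptor, and both dampen interleukin-1 signals. Tslp primes dendritic cells and type 2 immunity, Cxcl1 and Cxcl2 draw neutrophils through Cxcr2, and Ccl20 draws Ccr6-bearing dendritic cells and T cells to the epithelium. In skin many of these genes are induced by the transcription factor NF-κB, and interleukin-1 itself activates NF-κB, so the members can stand both upstream and downstream of that pathway.

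The promoters of the 3 chemokines are shown because each holds a match to the NF-κB consensus close to its start, and that of Il1a because it holds an AP-1 match there. The sequences are the 120 bases before the RefSeq start on build GRCm38.p6, written 5′ to 3′ on the strand of the gene. Cxcl1 lies at chr5:90891125-90891244 and Cxcl2 at chr5:90903779-90903898, both on the plus strand, Ccl20 at chr1:83116646-83116765 on the plus strand and Il1a at chr2:129309973-129310092 on the minus strand. Capitals mark the NF-κB match in the chemokine promoters and the AP-1 match in Il1a.
Cxcl1: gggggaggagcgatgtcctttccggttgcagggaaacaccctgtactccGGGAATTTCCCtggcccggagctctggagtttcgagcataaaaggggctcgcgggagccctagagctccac
Cxcl2: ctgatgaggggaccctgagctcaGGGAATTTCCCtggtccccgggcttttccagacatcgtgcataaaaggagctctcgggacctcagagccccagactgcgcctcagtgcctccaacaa
Ccl20: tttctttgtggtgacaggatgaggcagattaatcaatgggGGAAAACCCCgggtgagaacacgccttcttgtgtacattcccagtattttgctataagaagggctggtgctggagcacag
Il1a: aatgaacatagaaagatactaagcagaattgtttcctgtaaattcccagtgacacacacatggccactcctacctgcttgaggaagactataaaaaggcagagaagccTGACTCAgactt

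Cxcl1 and Cxcl2, neighbours on chromosome 5, carried the same 11 capital letters, beginning 71 and 97 bases before their starts, and there the consensus matched on both strands in overlapping positions. In Ccl20 the match began 80 bases before the start, on the minus strand. Windows from 250 bases before to 50 bases after the start were searched on both strands, and 4.51% of the 32851 promoters held an NF-κB match. The AP-1 motif TGANTCA was in Il1a and in Il1rn (7.81% of all promoters), the TATA motif TATAAA in Il1a, Il1b, Il1rn, Il18 and Il33 (13.6%), and the retinoid receptor hexamer AGGTCA in Il1rn and Ccl20 (16.3%). The direct repeat of that hexamer spaced by 5 bases, to which RAR and RXR pairs bind, was in none of the members' windows searched and in 0.00913% of all promoters. A match is a description of letters and not of a bound site. Tslp was left out of the promoter search.

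In wild-type HFSCs all 9 members that passed the filter on low counts were lower in atRA+PKCi than in FBS, where 26.6% of the 15965 genes tested were lower, 27.2% were higher and 53.9% changed in either direction. The median log2 fold change was -3.09 over the 9 members and 0.03 over all genes tested. Il1r2 passed that filter only through its FBS libraries, mainly those labelled Rxra cKO (15 and 46 counts, against 6 and 11 in wild-type FBS). A difference with the medium was thus built into its testing, and in part a higher value in cKO in FBS. Its calls are given as description. Il1b had too few counts to be tested. In what follows, atRA+PKCi with no genotype beside it means the wild-type libraries wherever it follows wild-type FBS in a sentence of values. In bulk RNA, fewer cells that express a gene and less of its RNA per cell cannot be told apart.

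**Figure D1:**
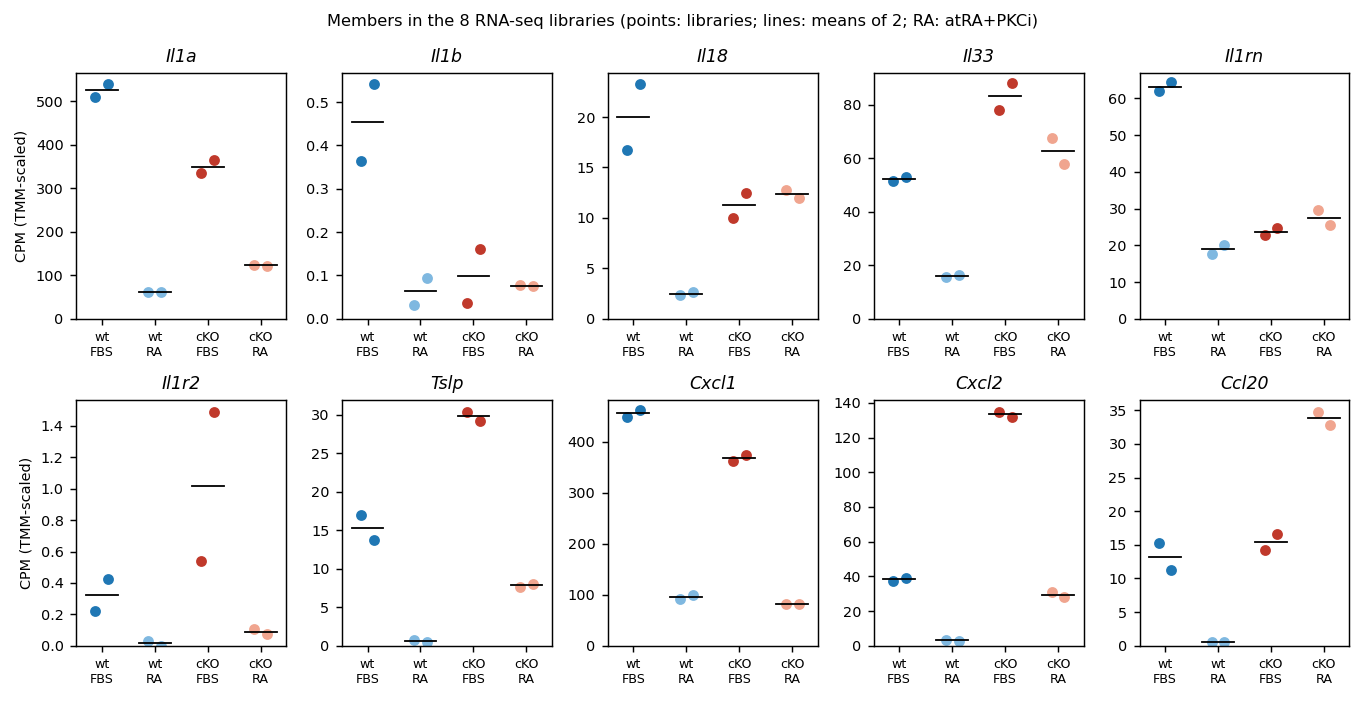
CPM (vertical axis, TMM-scaled) of each of the 10 members in the 8 RNA-seq libraries, with points for libraries and lines for the means of 2; RA on the horizontal axis stands for atRA+PKCi. In every panel the wild-type atRA+PKCi libraries lie below the wild-type FBS libraries, while Ccl20 is highest in the libraries labelled Rxra cKO in atRA+PKCi, at 34.8 and 32.8 CPM.

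Il1a, on chromosome 2 (129299610 to 129309972, GRCm38), had the highest level of the members per kb of annotated exons in wild-type FBS. It was at 266 ± 11 CPM per kb (SD, n = 2). The length used is the union of all annotated exons of a gene, which can exceed that of its main transcript. The order of Il1a and Cxcl1 by this measure could therefore differ with another length. It measured 509 and 540 CPM in wild-type FBS, 61.1 and 61.7 in atRA+PKCi, 334 and 364 in cKO FBS, and 124 and 121 in cKO atRA+PKCi. No 2 groups overlapped. The medium change was 8.54-fold lower in wild-type (log2 fold change -3.09, SE 0.0768, adjusted p = 1.47e-08) and 2.85-fold lower in cKO (-1.51, SE 0.0723, adjusted p = 1.20e-06). Between libraries of the same replicate number, the FBS to atRA+PKCi ratio was 8.33 and 8.75 in wild-type and 2.69 and 3.01 in cKO.

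Il1b, the neighbour of Il1a on chromosome 2 (129364570 to 129371139), was near the limit of detection. Its libraries held 10 and 14 counts in wild-type FBS, 1 and 3 in atRA+PKCi, 1 and 5 in cKO FBS, and 3 and 2 in cKO atRA+PKCi. Pooled within wild-type, the FBS to atRA+PKCi ratio was 7.07 (exact 95% interval 2.43 to 28.0, counting error only), and within cKO it was 1.33 (0.338 to 5.51). It overlaps the antisense gene Il1bos, and whether the counting used strand is not given in the sources used here.

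Il18, on chromosome 9 (50554827 to 50581840), measured 16.7 and 23.3 CPM in FBS and 2.37 and 2.63 CPM in atRA+PKCi of wild-type, and its 4 cKO libraries lay between 10.0 and 12.8 CPM. Wild-type was 7.97-fold lower in atRA+PKCi (log2 fold change -2.99, SE 0.196, adjusted p = 3.01e-06). In cKO the same contrast was 0.13 on the log2 scale (SE 0.172, adjusted p = 0.568) with overlapping libraries. Il18 shares sequence positions with Bco2 and Tex12.

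Il33, on chromosome 19 (29925114 to 29960718), measured 51.5 and 53.0 CPM in wild-type FBS, 15.7 and 16.2 in atRA+PKCi, 78.1 and 88.2 in cKO FBS, and 67.6 and 57.9 in cKO atRA+PKCi. Both cKO groups thus lay above both wild-type groups. The fall was 3.27-fold in wild-type (log2 fold change -1.71, SE 0.0985, adjusted p = 1.40e-06) and 1.32-fold in cKO (-0.40, SE 0.0907, adjusted p = 0.00680). The cKO call was lost without replicate 2 of cKO FBS (-0.32, adjusted p = 0.0567) and without replicate 2 of cKO atRA+PKCi (-0.30, adjusted p = 0.0666).

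The interleukin-1 antagonist Il1rn, on chromosome 2 (24336853 to 24351494), fell along with the agonists in wild-type. Wild-type libraries held 61.9 and 64.5 CPM in FBS and 17.7 and 20.0 CPM in atRA+PKCi, a 3.35-fold difference (log2 fold change -1.74, SE 0.10, adjusted p = 1.38e-06). The cKO libraries held 22.7 and 24.7 CPM in FBS and 29.6 and 25.4 CPM in atRA+PKCi, with no call (0.22, SE 0.0995, adjusted p = 0.111). All 4 cKO libraries therefore lay between the wild-type media.

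Il1r2, the decoy receptor gene on chromosome 1 (40074079 to 40125231), was rare, with 6 and 11 counts in wild-type FBS, 1 and 0 in atRA+PKCi, 15 and 46 in cKO FBS, and 4 and 2 in cKO atRA+PKCi. It fell with the medium in wild-type (edgeR adjusted p = 0.0154) and in cKO (adjusted p = 0.00594). The pooled FBS to atRA+PKCi ratio was 20.0 (exact 95% interval 3.14 to 837) in wild-type and 11.3 (4.89 to 31.9) in cKO. The wild-type call was lost without replicate 2 of wild-type FBS (adjusted p = 0.0684) or of wild-type atRA+PKCi (0.0831), and the cKO call without replicate 2 of cKO FBS (0.0741) or of cKO atRA+PKCi (0.0505). An antisense gene, Gm16894, overlaps it.

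Tslp, on chromosome 18 (32815383 to 32819797), had among the largest medium differences in wild-type. It measured 17.0 and 13.7 CPM in wild-type FBS, 0.802 and 0.475 in atRA+PKCi, 30.4 and 29.2 in cKO FBS, and 7.65 and 8.05 in cKO atRA+PKCi. The groups were fully separate. The fall was 23.9-fold in wild-type (log2 fold change -4.58, SE 0.203, adjusted p = 2.82e-07) and 3.80-fold in cKO (-1.92, SE 0.147, adjusted p = 1.58e-05).

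The neutrophil chemokines differed from each other. Cxcl1, on chromosome 5 (90891241 to 90893115), measured 449 and 462 CPM in wild-type FBS, 90.9 and 100 in atRA+PKCi, 362 and 373 in cKO FBS, and 80.8 and 81.9 in cKO atRA+PKCi. Its fall was of nearly the same size in wild-type (4.77-fold, log2 fold change -2.25, SE 0.0732, adjusted p = 4.77e-08) and in cKO (4.52-fold, -2.18, SE 0.0732, adjusted p = 2.90e-07). Cxcl2, on chromosome 5 (90903871 to 90905938), measured 37.4 and 39.2 CPM in wild-type FBS, 3.18 and 2.88 in atRA+PKCi, 135 and 132 in cKO FBS, and 30.7 and 27.9 in cKO atRA+PKCi. It fell 12.6-fold in wild-type (-3.66, SE 0.0949, adjusted p = 1.81e-08) and 4.55-fold in cKO (-2.19, SE 0.0753, adjusted p = 3.01e-07). In atRA+PKCi, Cxcl2 was thus far higher in cKO than in wild-type, and Cxcl1 was not.

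Ccl20, on chromosome 1 (83116766 to 83119167), moved in opposite directions with the medium in the 2 genotypes. Wild-type libraries held 15.2 and 11.2 CPM in FBS and 0.577 and 0.507 CPM in atRA+PKCi, 24.2-fold lower (log2 fold change -4.60, SE 0.218, adjusted p = 4.30e-07). The cKO libraries held 14.3 and 16.6 CPM in FBS and 34.8 and 32.8 CPM in atRA+PKCi, 2.19-fold higher (1.13, SE 0.142, adjusted p = 0.000302). Between libraries of the same replicate number the FBS to atRA+PKCi ratio was 26.3 and 22.1 in wild-type and 0.411 and 0.506 in cKO.

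Ordered by level per kb of annotated exons in wild-type FBS, Il1a stood above Cxcl1 (243 ± 4.64 CPM per kb), and these stood far above the rest. The order depends on these lengths, which are not those of a single transcript. Il18 (19.4 ± 4.51), Cxcl2 (18.5 ± 0.640) and Il33 (18.1 ± 0.377 CPM per kb) followed and did not differ beyond their SDs. Tslp (11.5 ± 1.73), Il1rn (11.4 ± 0.328) and Ccl20 (9.28 ± 2.02 CPM per kb) came next, again within their spread, and Il1b (0.238 ± 0.0652) and Il1r2 (0.169 ± 0.0763 CPM per kb) were lowest (SD, n = 2 throughout). In cKO atRA+PKCi the order changed in its middle, with Ccl20 (23.8 ± 0.995) and Il33 (21.7 ± 2.36 CPM per kb) next after Il1a (62.0 ± 1.17) and Cxcl1 (43.4 ± 0.388 CPM per kb).

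In cKO, 6 of the 9 tested members (Il1r2, which passed the filter through FBS, among them) were lower in atRA+PKCi, 1 (Ccl20) was higher and 2 (Il1rn and Il18) were not called, where 22.2% of all genes were lower, 20.8% higher and 43.0% either. The median was -1.51 over the members and 0.02 over all genes. The interaction, the wild-type medium effect minus the cKO medium effect, tests whether these falls differed. It was called negative, a larger fall in wild-type, for 7 members and for 13.3% of all genes, and positive for no member and 11.3% of all genes (24.6% either). Ccl20 had the largest difference (-5.72, SE 0.264, adjusted p = 4.16e-06), followed by Il18 (-3.13, SE 0.260, adjusted p = 7.61e-05) and Tslp (-2.66, SE 0.260, adjusted p = 0.000189). Il1rn (-1.96), Il1a (-1.58), Cxcl2 (-1.47) and Il33 (-1.31) followed, with edgeR adjusted p between 1.95e-05 and 0.000237. The interaction was -0.08 for Cxcl1 (SE 0.0995, adjusted p = 0.621) and -0.59 for Il1r2 (SE 1.25, adjusted p = 0.777), so a difference of Il1r2 was not detectable at its counts. With each library left out in turn that of Il1r2 ranged from -2.88 to 0.26, the highest without replicate 2 of wild-type atRA+PKCi.

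**Figure D2:**
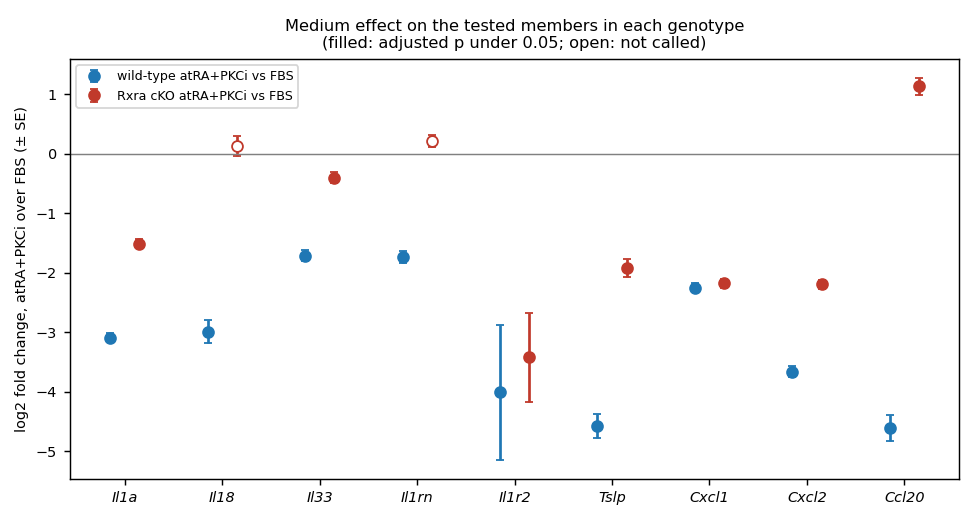
Log2 fold change of atRA+PKCi over FBS (vertical axis, ± SE) for the 9 tested members in wild-type (blue) and Rxra cKO (red); open points were not called. Cxcl1 has overlapping values near -2.25 and -2.18, and Ccl20 lies at -4.60 in wild-type and 1.13 in cKO.

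Between genotypes the members split in FBS and were mostly higher in cKO in atRA+PKCi. In FBS, Il33 (1.59-fold, adjusted p = 0.000499), Tslp (1.94-fold, adjusted p = 0.000782) and Cxcl2 (3.48-fold, adjusted p = 8.68e-07) were higher in cKO by edgeR's test. Il1rn (2.67-fold, adjusted p = 1.23e-05), Il18 (1.77-fold, adjusted p = 0.00469), Il1a (1.5-fold, adjusted p = 0.000241) and Cxcl1 (1.24-fold, adjusted p = 0.00690) were lower. That is 3 members higher and 4 lower, beside 22.3% and 20.5% of all genes (42.8% either). Il1r2 passed the filter on low counts mainly through its cKO FBS libraries, so its values between genotypes in FBS are given as description. Ccl20 (log2 difference 0.23, SE 0.147, adjusted p = 0.251) and Il1r2 (1.66, SE 0.639, adjusted p = 0.0660) were not called, but Ccl20 was called without replicate 1 of wild-type FBS (0.47, adjusted p = 0.0216) and Il1r2 without replicate 1 of cKO FBS (2.19, adjusted p = 0.0416).

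In atRA+PKCi 7 members were higher in cKO, 1 was lower and Il1r2 was not called (log2 difference 2.25, SE 1.35, adjusted p = 0.213), beside 23.0% higher and 20.2% lower of all genes (43.2% either). The median log2 difference was 2.25 over the members and 0.00 over all genes. That median is the value of Il1r2, which ranged from 1.4 to 4.53 with each library left out in turn. Ccl20 was 61.9-fold higher (SE 0.210 on the log2 scale, adjusted p = 2.40e-07), Tslp 12.2-fold (adjusted p = 3.13e-06) and Cxcl2 9.67-fold (adjusted p = 1.15e-07). Il18 was 4.94-fold, Il33 3.94-fold, Il1a 1.99-fold and Il1rn 1.46-fold higher, with edgeR adjusted p between 1.35e-06 and 0.00242. Cxcl1 alone was lower, by 1.17-fold (adjusted p = 0.0284), and that call was lost without either wild-type atRA+PKCi replicate (adjusted p = 0.0506 and 0.212), without replicate 1 of cKO FBS (0.0588) and without either cKO atRA+PKCi replicate (0.210 and 0.133). The comparisons share libraries, so their counts are not independent of each other.

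The wider pathway was read from 8 lists of 102 genes, of which 101 had a row and 86 were tested. In wild-type 54 were lower in atRA+PKCi, 7 were higher and 25 were not called, with a median of -1.11, beside 26.6% of all genes lower and 27.2% higher. In cKO 39 were lower, 16 higher and 31 not called, with a median of -0.23, beside 22.2% of all genes lower and 20.8% higher. Between genotypes, 32 were higher and 21 lower in cKO in FBS (median 0.07), beside 22.3% and 20.5% of all genes, so the number lower was near the share of all genes. In atRA+PKCi 53 were higher and 9 lower (median 0.92), beside 23.0% and 20.2%. Birc3, Tnip3, Pycard and Gsdme passed the filter on low counts only through cKO libraries. A higher value in cKO was thus built into the testing of these genes in both media. The interaction was negative for 40 and positive for 4, beside 13.3% and 11.3%.

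All 4 tested genes of the interleukin-36 group were lower in atRA+PKCi in both genotypes, beside 26.6% of all genes in wild-type and 22.2% in cKO. Il1f9, which encodes interleukin-36γ, measured 217 and 226 CPM in wild-type FBS, 5.29 and 6.65 in atRA+PKCi, 242 and 265 in cKO FBS, and 64.1 and 57.8 in cKO atRA+PKCi (wild-type log2 fold change -5.21, adjusted p = 1.15e-08, and cKO -2.05, adjusted p = 1.20e-06). For Il1f8, interleukin-36β, the pooled FBS to atRA+PKCi ratio was 698 in wild-type (1778 against 3 counts, exact 95% interval 238 to 3387) and 8.87 in cKO (985 against 123 counts, 7.35 to 10.8). For Il1f5, the interleukin-36 receptor antagonist, it was 2008 in wild-type (1705 against 1 count, 360 to 79344) and 4.48 in cKO (4.02 to 5.00).

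Of all genes, 26.6% were lower and 27.2% higher in atRA+PKCi in wild-type, and 22.2% and 20.8% in cKO. Beside these shares, receptors were lower for 8 of 12 tested genes in wild-type and for 6 in cKO, with none higher. In wild-type both chains of the interleukin-18 receptor fell most among them, whereas in cKO Cxcr2 (7.23-fold) and Il1rl1 (4.99-fold) fell more than Il18rap (4.28-fold) and Il18r1 (3.71-fold). Il18r1 measured 19.3 and 23.0 CPM in wild-type FBS, 0.866 and 0.697 in atRA+PKCi, 40.6 and 44.1 in cKO FBS, and 10.9 and 12 in cKO atRA+PKCi (wild-type log2 fold change -4.75, adjusted p = 5.81e-08). Il18rap measured 11.8 and 11.2, 0.289 and 0.253, 31.9 and 32.1, and 7.33 and 7.64 CPM in the same order of groups (-5.39, adjusted p = 2.19e-08). Cxcr2, the receptor of Cxcl1 and Cxcl2, fell from 5.99 and 5.56 CPM to 0.513 and 0.507 CPM in wild-type (-3.49, adjusted p = 1.59e-06).

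Among 11 tested genes of precursor cutting and cytokine release, 6 were lower and 2 higher in wild-type, with the same counts in cKO, where the number higher was not above the share of all genes given for each contrast. Nlrp3 of this list (18 and 12 counts in wild-type FBS, 1 and 2 in atRA+PKCi) passed the filter on low counts only through its FBS libraries, as Il1r2 did. Gsdma, which encodes a pore-forming gasdermin of the epidermis, fell from 88.8 and 89.6 CPM to 0.289 and 0.475 CPM in wild-type (-7.85, adjusted p = 1.10e-08), and it was at 60.2 and 71.6 CPM in cKO FBS and at 5.87 and 6.07 CPM in cKO atRA+PKCi. Nlrp10, an inflammasome-related gene, went the other way, from 31.6 and 31.8 to 284 and 271 CPM in wild-type (3.13, adjusted p = 3.72e-08) and from 23.2 and 27.5 to 75.8 and 68.4 CPM in cKO. The signalling chain from Myd88 to the NF-κB subunits moved little in wild-type, with a median of -0.04. There 6 of 17 were lower and 1 higher, beside 26.6% of all genes lower and 27.2% higher. The number lower was thus near the share of all genes. In wild-type Relb (-0.93), Nfkb2 (-0.88) and Traf6 (-0.70) were lower and Irak1 (0.43, adjusted p = 0.000821) was higher. In cKO 2 of the 17 were lower and 4 higher, beside 22.2% and 20.8% of all genes. The interaction was negative for 5 and positive for 0, beside 13.3% and 11.3%.

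A list of 12 genes held mostly regulators that NF-κB induces and that feed back on it, beside the adhesion gene Icam1 and the antioxidant enzyme gene Sod2. The interaction was negative for 7 of them and not called for 5, where it was negative for 13.3% of all genes. Nfkbia, which encodes the inhibitor IκBα, measured 371 and 350 CPM in FBS and 130 and 138 in atRA+PKCi of wild-type, but 345 and 351 in cKO FBS and 358 and 346 in cKO atRA+PKCi. Its medium effect was -1.43 in wild-type (adjusted p = 5.09e-07) and 0.02 in cKO (adjusted p = 0.878), with an interaction of -1.44 (adjusted p = 2.35e-05). Tnfaip3, the deubiquitinase A20, measured 115 and 94.9, 30.3 and 32.5, 135 and 133, and 124 and 120 CPM in the same order of groups (interaction -1.60), and its partner Tnip1 41.8 and 38.1, 16.0 and 14.2, 36.4 and 35.9, and 32.4 and 33.3 CPM (interaction -1.27). Over the list of 12, 7 were lower and 1 higher in wild-type, 1 lower and 6 higher in cKO, and 10 were higher in cKO than in wild-type in atRA+PKCi, where none was lower. For all genes these shares were 26.6% lower and 27.2% higher, 22.2% lower and 20.8% higher, and 23.0% higher. In FBS 5 were higher in cKO, 2 lower and 5 not called, with a median of -0.09, beside 22.3% of all genes higher and 20.5% lower. Birc3 and Tnip3 of this list passed the filter on low counts only through their cKO libraries. Being higher in cKO was thus built into their testing in both media, and their calls between genotypes are given as description. Nfkbiz, which encodes a nuclear IκB protein, was higher in atRA+PKCi in both genotypes (0.44, adjusted p = 0.00428, and 0.62, adjusted p = 0.000888).

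Other cytokines, chemokines and antimicrobial genes were mostly lower in wild-type atRA+PKCi, for 9 of 13, 7 of 8 and 7 of 9 tested genes. The medians there were -1.79, -1.27 and -4.33, and the share of all genes called lower was 26.6%. In cKO 8, 5 and 7 of these genes were lower, with medians of -1.96, -0.80 and -2.96, beside 22.2% of all genes. Cxcl3, which resembles Cxcl1 and Cxcl2 in sequence and function and may share reads with them, measured 83.8 and 83.9 CPM in wild-type FBS, 4.39 and 4.63 in atRA+PKCi, 354 and 340 in cKO FBS, and 33.2 and 31.0 in cKO atRA+PKCi (wild-type -4.22, adjusted p = 1.06e-08). Tnf, the tumour necrosis factor gene and an activator of NF-κB, measured 7.48 and 6.30, 0.513 and 0.507, 22.5 and 24.6, and 12.2 and 11 CPM (interaction -2.72). Il24 fell from 205 and 233 to 4.84 and 2.66 CPM in wild-type (-5.87, adjusted p = 8.13e-08), and Csf1, a macrophage growth factor, was higher in atRA+PKCi (0.93, adjusted p = 0.000214). Of the antimicrobial list, Defb3 passed the filter only through its FBS libraries, so its fall was built into its testing. For the β-defensin gene Defb4 the FBS to atRA+PKCi ratio was 2313 in wild-type (1964 against 1 count, exact 95% interval 415 to 91390) and 9.80 in cKO (8.26 to 11.7).

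**Figure D3:**
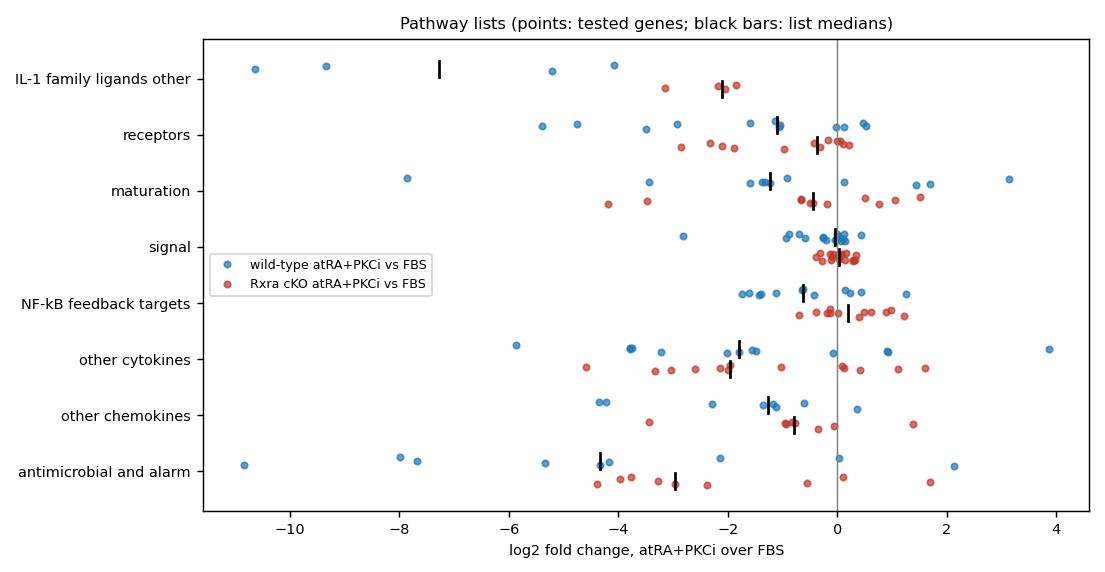
Log2 fold change of atRA+PKCi over FBS (horizontal axis) for each tested gene of the 8 pathway lists (rows), in wild-type (blue) and Rxra cKO (red), with black bars at list medians. The median of the NF-κB feedback list is -0.63 in wild-type and 0.20 in cKO, and that of the interleukin-36 group (top row) is -7.27 and -2.11, where 2 wild-type points rest on 1 and 3 counts.

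Some summed markers of keratinocyte state moved with the members and others did not. Summed over the lists, suprabasal markers (Dmkn the most abundant) were at 4292 and 4536 CPM in wild-type FBS, 280 and 280 in atRA+PKCi, 2281 and 2848 in cKO FBS, and 866 and 809 in cKO atRA+PKCi. Most of this sum was Dmkn, Sbsn and Krtdap, and the suprabasal keratin genes differed from it in cKO, where Krt1 was at 3.02 and 2.88 CPM in FBS and 43.4 and 33.5 CPM in atRA+PKCi and Krt10 at 8.59 and 8.36 and at 29.8 and 22.9 CPM. Companion layer markers (Krt6a the most abundant) were at 26703 and 26482, 2155 and 2148, 13128 and 14864, and 6684 and 6286 CPM. The stem cell keratin gene Krt15 went the opposite way, at 3.65 and 4.75, 4576 and 4430, 6.51 and 8.23, and 251 and 245 CPM. Upper follicle markers summed to 373 and 406, 155 and 160, 2254 and 2598, and 1701 and 1647 CPM, of which Krt17 alone made up 78.1 and 95.2, 48.3 and 57.2, 1731 and 1983, and 1500 and 1460 CPM. Krt79 of the same list was highest in wild-type atRA+PKCi, at 16.0 and 13.9 CPM. The basal epidermis list (Krt14 the most abundant) was at 38048 and 38439, 22850 and 22757, 24193 and 26312, and 27634 and 27489 CPM, and the outer root sheath list, which shares Krt14, at 33084 and 34520, 15317 and 15438, 22414 and 24618, and 25678 and 25584 CPM, so both fell with atRA+PKCi in wild-type libraries and in cKO libraries were slightly higher than in FBS. The inner root sheath list (Tchh) was at 101 and 90.7, 35.8 and 32.8, 30.7 and 37.1, and 57.6 and 56.0 CPM. Their part in the members' differences was not tested.

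Markers of most other cell types were low. The adipocyte list was an exception, at 325 and 416 CPM in wild-type FBS, 14.4 and 14.8 in atRA+PKCi, 159 and 192 in cKO FBS, and 23.8 and 24.7 in cKO atRA+PKCi, with Fabp4 the most abundant (320 and 412 CPM in wild-type FBS), Adipoq at no more than 0.0745 CPM and Cfd at 0. It moved with the members, and its part was not tested. The mural and contractile list (Notch3 the most abundant) was at 59.2 and 35.2, 42.1 and 45.7, 32.2 and 40.8, and 72.7 and 71.0 CPM, and its gene Acta2 was at 14.8 and 15.2 CPM in cKO atRA+PKCi and did not exceed 0.647 CPM in the other groups. Its part was not tested. The immune list summed to between 0.641 and 2.28 CPM, with Cd74 the most abundant gene, Tyrobp at 0 in every library and 7 of 8 genes with any count. The fibroblast list summed to between 1.32 and 11.6 CPM, with Pdgfra the most abundant and Lum at 0. The lymphocyte list summed to 0.876 and 0.734 CPM in wild-type FBS, 0.0641 and 0.317 in atRA+PKCi, 8.70 and 11.7 in cKO FBS, and 5.00 and 6.15 in cKO atRA+PKCi, with Trbc2 the most abundant gene in the cKO libraries and Cd3e, Cd3d, Nkg7 and Gzma at 0 in every library. Cd7, the next of that list, was at 2.91 and 3.85 CPM in cKO FBS and did not exceed 0.766 CPM in the other groups. The neutrophil list was at 6.64 and 6.64 CPM in wild-type FBS and 0.353 and 0.570 in wild-type atRA+PKCi. In cKO it was at 16.3 and 19.3 CPM in FBS and 2.07 and 1.94 CPM in atRA+PKCi. Mmp9 was its most abundant gene, one that keratinocytes also express, and Retnlg was at 0. The neutrophil list was thus lower in atRA+PKCi in both genotypes, as most members were, and its part was not tested.

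Genes whose pattern over the 8 libraries was most like each member were found by Pearson's r of log2 CPM among 12188 genes, as a description, since the libraries share groups and depth. They were Dmkn (0.9992) and Nucb2 (0.9988) for Il1a, Procr (0.9993) and Tmc7 (0.9978) for Cxcl1, F3 (0.9976) and Ehd1 (0.9972) for Cxcl2, and Nebl (0.9944) and Galnt10 (0.9930) for Ccl20. Il33 was nearest to Cbr3 (0.9981) and Tmem154 (0.9973), Tslp to Acot7 (0.9975) and Dnajb11 (0.9964), Il18 to BC100530 (0.9877) and Tchhl1 (0.9875), Il1rn to Icosl (0.9904) and Fam162a (0.9898), and Il1r2 to Timm50 (0.9788) and Lgals1 (0.9777). No member was the nearest gene of another.

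In anagen skin the members lay in different cell classes, several of them outside the epithelium. Single-cell data from 2 wild-type mice held 13625 and 13608 cells in 21 classes, clustered without the members and pathway genes. Of these classes 11 took a name from marker genes, and the others are called by their leading genes. The study's methods describe cells sorted as CD45-, CD31-, CD140a- and CD117-, yet a class with fibroblast markers took 44% (6001 cells) and 45.5% (6187 cells), with Pdgfra, which encodes CD140a, at 320 and 423 CPM against 11.3 and 19.5 CPM in inner root sheath. An immune class of 248 and 442 cells held Ptprc, which encodes CD45, at 756 and 938 CPM. Divided further, this class held a Krt15-led sub-cluster of 60 cells with outer root sheath markers and another of 29 cells with fibroblast markers. Values given below for immune cells are those of the whole class. The median cell held 8087 and 9499 unique molecules (UMIs), and 46 cell barcodes occurred among the kept cells of both mice. Shares of classes depend on the sort. No groups were compared, and the values are descriptions with exact Poisson 95% intervals that cover counting error only.

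Il1b was an immune gene here, at 377 CPM (345 to 412) in mouse 1 and 396 CPM (373 to 420) in mouse 2 in the immune class, against 0.514 and 0.651 CPM in fibroblasts. Cxcl2 also had its highest level there, at 224 CPM (199 to 252) and 109 CPM (97.3 to 122), with 36.2 and 16.5 CPM in fibroblasts. Il1a, highest of the members per kb of annotated exons in wild-type FBS culture, had 6 and 4 UMIs over all classes.

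Fibroblasts, the largest class, held most molecules of Cxcl1, Cxcl2, Il1r2, Il18, Il33 and Tslp. Their share of UMIs was 89.9% and 91.7% for Cxcl1, 91.5% and 86.8% for Il1r2, 94.4% and 90.3% for Il18, 88.0% and 76.9% for Il33, and 87.9% and 88.6% for Tslp. It was 81.6% and 76.6% for Cxcl2, whose CPM was highest in the immune class, although that class held 11.7% and 17.9% of its UMIs. Cxcl1 reached 328 CPM (323 to 332) and 195 CPM (192 to 198) in fibroblasts, and it was higher still in mural and contractile cells of mouse 1, at 741 CPM (677 to 810), but at 152 CPM (134 to 171) in mouse 2. Il18 was at 55.8 and 37.9 CPM in fibroblasts and at 29.2 and 48.1 CPM in immune cells, so its leading class differed between the mice. Cxcl1 in inner root sheath was at 14.2 and 10.7 CPM and in outer root sheath at 15.4 and 13.3 CPM. Col1a1, which fibroblasts make, gave 427 and 728 CPM in inner root sheath against 9760 and 12400 CPM in fibroblasts, so such low values of Cxcl1 cannot be told apart from free RNA of the suspension.

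Il33 was highest in a small unnamed class led by Areg, Wfdc2 and Krt18, at 351 CPM (319 to 386) in 112 cells of mouse 1 and 280 CPM (247 to 315) in 52 cells of mouse 2. It was at 122 and 25.2 CPM in fibroblasts and at 53.0 and 56.2 CPM in a class led by Cst6, Krt79 and Defb6. Il1r2 was at 162 CPM (159 to 166) and 99.5 CPM (97.3 to 102) in fibroblasts, 57.0 and 82.6 CPM in the Cst6-led class, 61.4 and 69.1 CPM in immune cells and 5.16 and 4.47 CPM in inner root sheath. The decoy receptor, rare in cultured HFSCs, was thus among the better measured members in skin.

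The class led by Cst6, Krt79 and Defb6, 306 and 298 cells, led for Il1rn and Ccl20. It held all 7 upper follicle markers, but genes of the suprabasal epidermis (Krt1, Krt10 and Krtdap) also stood among its 10 leading genes and its sub-clusters were of several kinds, so it is called by its leading genes. Its sub-cluster led by Cst6, Gm12068 and Sprr1a, with upper follicle markers (55 and 27 cells), had 0 UMIs of both genes in both mice, with upper limits of 9.01 and 14.3 CPM, the latter above the level of Ccl20 over the class in mouse 2. Over the whole class Il1rn was at 23.7 CPM (18 to 30.6) and 23.4 CPM (18.6 to 29.2) there, and at 20.0 and 14.1 CPM in immune cells. Ccl20 was at 11.6 CPM (7.8 to 16.7, 29 UMIs) and 6.74 CPM (4.27 to 10.1, 23 UMIs), and had 0 UMIs in the immune class of either mouse. Over all classes Ccl20 had 42 and 29 UMIs. For 7 of the 10 members the leading class was the same in both mice, the exceptions being Il18, Tslp and Cxcl1. For Il1a, counted among the 7, this rested on 4 and 1 UMIs in the immune class.

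**Figure D4:**
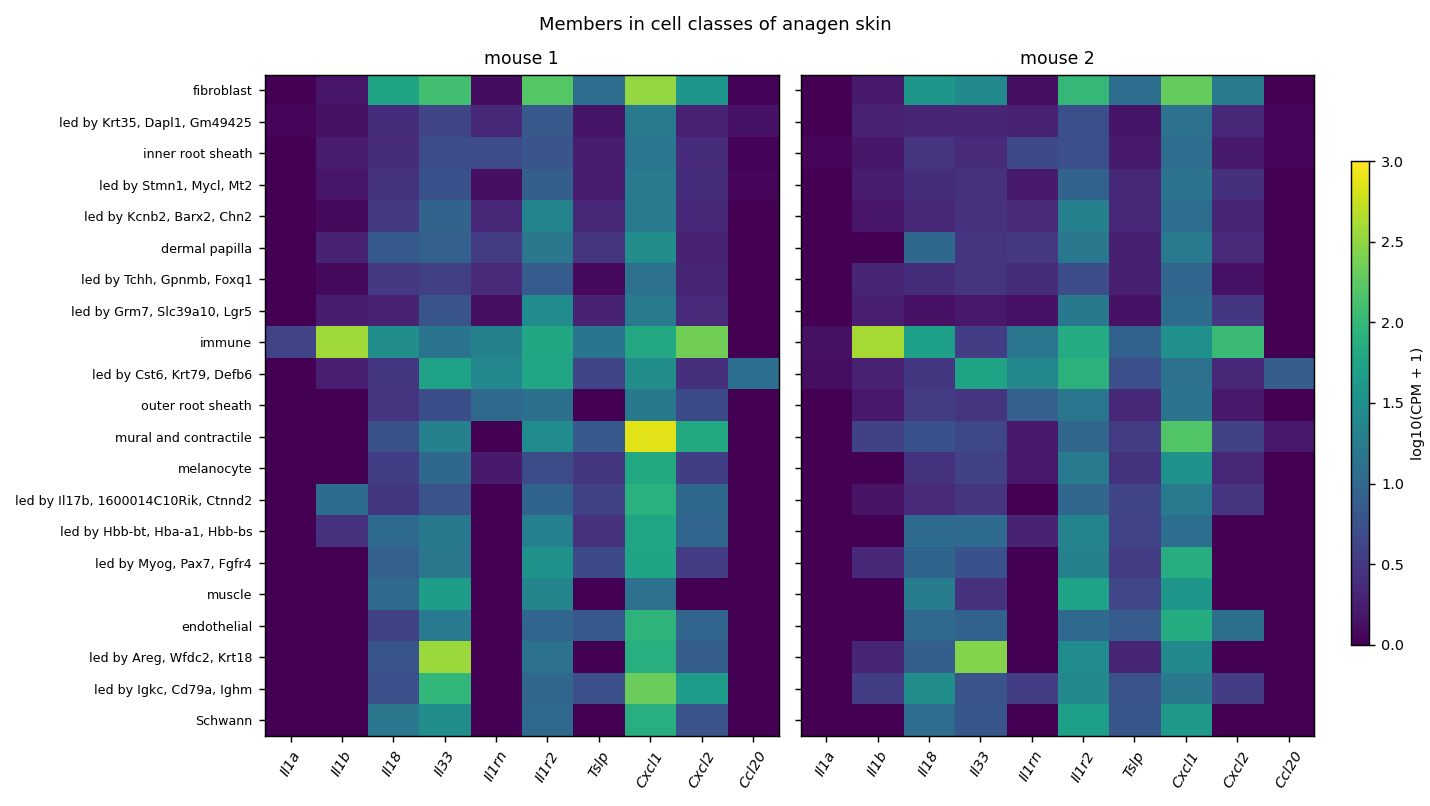
Level of each member (columns) in each cell class of anagen skin (rows) for the 2 mice, in colour as log10(CPM + 1). Il1b and Cxcl2 stand out in the immune class, Ccl20 in the class led by Cst6, Krt79 and Defb6, Il33 in the class led by Areg, and Cxcl1 in fibroblasts and mural cells of both mice.

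Within the 6 fibroblast clusters the members divided into separate patterns. Cxcl1 was highest in the Cdh4-led cluster, at 669 and 396 CPM, and lowest in the Thbs4-led cluster, at 120 and 65.1 CPM. Il33 was highest in the Pgr-led cluster, at 217 and 106 CPM, against 10.4 and 2.49 CPM in the Adam12-led cluster. Il18 and Il1r2 followed Il33 more than Cxcl1, with Il18 at 103 and 144 CPM in the Pgr-led, 73.2 and 84.8 CPM in the Isg15-led and 4.52 and 3.75 CPM in the Adam12-led cluster, and Il1r2 at 248 and 157, 170 and 166, and 27.7 and 15.5 CPM in the same clusters. Cluster sizes differed between mice, with 2932 and 120 cells in the Pgr-led cluster and 557 and 2492 cells in the Isg15-led cluster, so the fibroblast means of Il33 weigh different cells in each mouse. Within every fibroblast cluster but the Cdh4-led, Il33 was nonetheless lower in mouse 2.

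**Figure D5:**
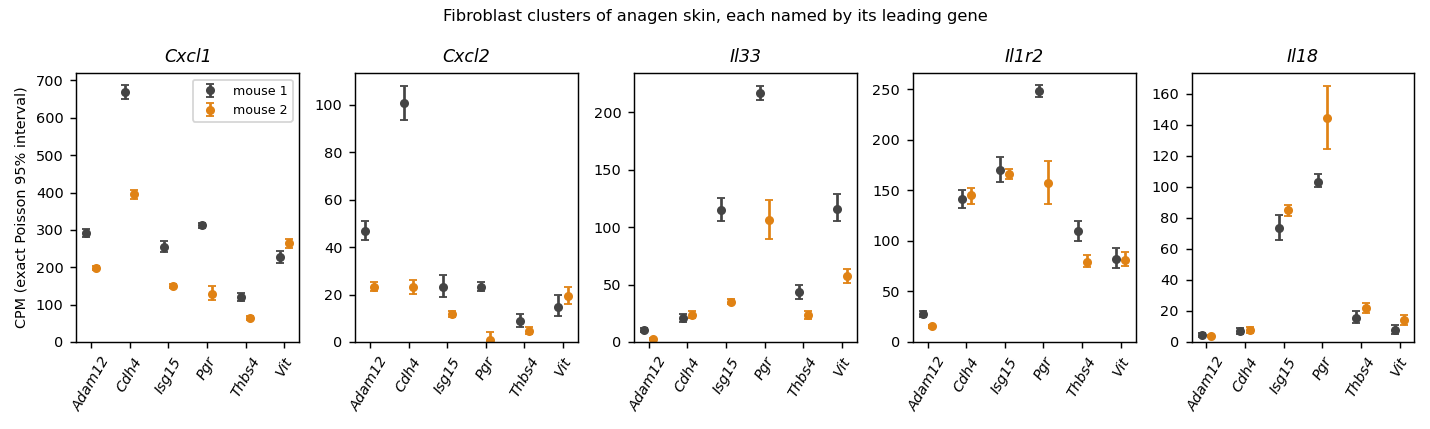
CPM (vertical axes, exact Poisson 95% intervals) of 5 members in the 6 fibroblast clusters, each named by its leading gene, in mouse 1 (grey) and mouse 2 (orange). Cxcl1 peaks in the Cdh4-led cluster at 669 and 396 CPM, and Il33 in the Pgr-led cluster at 217 and 106 CPM.

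The immune class and the class led by Cst6, Krt79 and Defb6 were divided further. In mouse 2, Il1b reached 5780 CPM (5320 to 6270, 584 UMIs) in a sub-cluster of 37 cells led by the neutrophil genes Ngp, Ltf and Retnlg, which also held Il1r2 at 1010 CPM (102 UMIs) and Il1rn at 168 CPM (17 UMIs). Only 10 cells of mouse 1 fell there. In the Cd209a-led sub-cluster (60 and 49 cells), Il1b was at 857 and 512 CPM and Cxcl2 at 737 and 346 CPM. In the class led by Cst6, Krt79 and Defb6, 28 of the 29 Ccl20 UMIs of mouse 1 lay in a Fst-led sub-cluster (52.2 CPM, against 3.70 CPM in mouse 2), whereas 17 of the 23 of mouse 2 lay in an Igfbp3-led, basal epidermis-like sub-cluster (31.9 CPM, against 3.04 CPM in mouse 1). By these few molecules, the cells that held most Ccl20 differed between the mice. Il33 was at 221 and 140 CPM in a Fa2h-led sub-cluster with sebaceous markers and at 155 and 93.9 CPM in the Igfbp3-led cells, which also held Il1r2 at 234 and 252 CPM. Il1rn was at 61.0 and 40.4 CPM in a Krt1-led sub-cluster and at 51.7 and 54.4 CPM in the Igfbp3-led cells.

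Receptors for the members were read in the same classes, chosen after their values were seen. Il1r1, the receptor for interleukin-1α and interleukin-1β, was at 141 CPM (138 to 144) and 137 CPM (135 to 140) in fibroblasts, 28.4 and 22.4 CPM in immune cells and 36.1 and 54.2 CPM in the class led by Cst6, Krt79 and Defb6. Cxcr2, the receptor of Cxcl1 and Cxcl2, was at 20.7 and 40.9 CPM in immune cells and at 0.248 and 0.434 CPM in fibroblasts. Il1f9, abundant in cultured HFSCs, had 30 and 16 UMIs over all classes, and Cxcl3 had 4 and 1.

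Cultured HFSCs under hashtagged conditions gave little further evidence on the members, because few cells passed the filters. Of 449 and 208 barcodes, 222 and 78 single cells were kept, none of them from FBS and only 2 and 1 from atRA+PKCi alone. The conditions compared were B-27 medium and media with atRA+PKCi plus the Wnt agonist R-spondin (Rspo), BMP2/4, both, or both with a retinoic acid receptor inhibitor (RARi). Il1a, Il18, Il33 and Cxcl1 could be tested among 6265 genes on counts summed per mouse and condition, and edgeR's quasi-likelihood test with Benjamini-Hochberg adjustment called 0 of 4 in each of the 3 comparisons, beside 5.71% of all genes for BMP2/4 against B-27 (5.28% lower and 0.431% higher) and 0% for the other 2 comparisons. At an unadjusted p under 0.05 it held 1507, 44 and 232 genes, of which 1 was a member, Cxcl1, for Rspo with BMP2/4 against BMP2/4. DESeq2 called 388, 0 and 0 genes, with no member among them.

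Cxcl1 was at 206 and 63.7 CPM in B-27, 81.4 and 303 CPM in BMP2/4, 34.2 and 66.0 CPM in Rspo with BMP2/4, and 52.0 and 63.1 CPM with RARi added. The largest difference of these members in size was that of Cxcl1 for Rspo with BMP2/4 against BMP2/4 (log2 fold change -1.96, SE 0.563, adjusted p = 1.00 in edgeR). A single cell held 36 of the 39 Cxcl1 UMIs (92.3%) in B-27 of mouse 1. A single cell held 140 of the 155 Cxcl1 UMIs (90.3%) in BMP2/4 of mouse 2, and a single cell held 153 of the 162 Cxcl2 UMIs (94.4%) there. Il1a was at 42.3 and 9.10 CPM in B-27, 31.4 and 29.4 in BMP2/4, 16.9 and 28.1 in Rspo with BMP2/4, and 31.2 and 6.64 CPM with RARi added, and its log2 differences of 0.45 (SE 0.715), -0.59 (SE 0.536) and -1.06 (SE 0.807) were within 1.5 times their SEs. Il1r2 had 0 UMIs in every condition. Fewer pathway genes passed the filter here than in the RNA-seq libraries, so the number tested there is not the base of this count. Of those tested, 7 were lower in BMP2/4 than in B-27 (adjusted p under 0.01 and over 2-fold), beside 5.28% of all 6265 genes tested. Among the 7 were Il1f9 (-3.31, adjusted p = 0.000250) and Gsdma (-6.10, adjusted p = 5.53e-05) by edgeR's test. The filter on low counts could be met by the B-27 libraries alone. A fall may thus have been built into the testing of genes high only there, and these calls are given as description. Suprabasal markers differed along with the 7 genes, at 5848 and 4916 CPM in B-27 and 563 and 511 CPM in BMP2/4, and their part was not tested.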

How the data were processed

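RNA-seq reads were quantified by the authors with Salmon 1.4.0 and tximport on mm10, and the deposited table gives estimated counts per gene, which were rounded before testing. A second table of normalized counts deposited by the authors (a signal scaled by size factors) was used only for an alternative. Single-cell matrices hold UMI counts deposited by the authors (Cell Ranger 7.0.1 per the labels). ATAC-seq and CUT&RUN were not used here.

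The 8 libraries were fitted together in edgeR 4.0.16 (quasi-likelihood, TMM, filterByExpr, 4 group means, 15965 of 51906 genes, Benjamini-Hochberg adjusted p under 0.05), and p-values were adjusted over all genes tested. Replicates are lines of separate mice and correlated at 0.994 to 0.997. The library titles give a number, and libraries of a genotype with the same number were taken to come from the same mouse in both media. That pairs them (r of same-number deviations 0.135 in wild-type and -0.000821 in cKO), and the fit shown has no block for mouse. TMM factors and depth entered CPM. DESeq2 1.42.0, limma 3.58.1, no filter, a replicate block and each library left out were alternatives. Genes Il1f5, Il1f6, Il1f8 and Il1f9 are Il36rn, Il36a, Il36b and Il36g under older symbols.

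Single cells were kept with at least 500 genes, 1000 UMIs and under 10% mitochondrial UMIs, and doublets predicted by Scrublet (5.76% and 2.21%) were removed. Of 26 Leiden clusters (scanpy 1.11.5, resolution 0.5), 16 were named from markers, so these names are rebuilt and may differ from the study's. Removal of free RNA described in the study's methods is not in the deposited matrices. Hashtags were called with HTODemux (Seurat 5.3.0), and summed counts needed at least 5 cells and were called at adjusted p under 0.01 and over 2-fold. CPM intervals are exact Poisson at 95%. Each statistical script was tested on simulated data. Members, lists and tests were chosen with earlier results of these data known. All members were named, and from each list up to 3 called genes with the largest and the smallest log2 fold change in the wild-type medium contrast and the interaction, with no overlap of groups and 50 or more normalized counts on average. Coordinates are GENCODE M21 (GRCm38).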

Additional observations from a re-analysis of the deposited data

Results flagged for a closer look

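The medium effect differed between wild-type and Rxra cKO by the interaction term of edgeR's quasi-likelihood test (adjusted p under 0.05) for 7 members. The wild-type log2 effect minus the cKO effect was -5.72 for Ccl20, -3.13 for Il18, -2.66 for Tslp, -1.96 for Il1rn, -1.58 for Il1a, -1.47 for Cxcl2 and -1.31 for Il33, the wild-type effect being the more negative in each. Il1a, Tslp, Cxcl2 and Il33 fell in both genotypes, Ccl20 was higher in atRA+PKCi in cKO (1.13), and Il18 (0.13) and Il1rn (0.22) were not called in cKO.

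Among the other ligands and receptors the same difference was -8.46 for Il1f5, -6.17 for Il1f8, -3.16 for Il1f9, -3.29 for Il18rap, -2.86 for Il18r1 and -1.65 for Il17rc. In the genes of maturation, signalling and NF-κB feedback it was -4.38 for Gsdma, -1.60 for Tnfaip3, -1.44 for Nfkbia, -1.27 for Tnip1, -0.89 for Capn1, -0.63 for Capn2, -0.60 for Nfkb2, -0.56 for Relb and -0.53 for Irak2, and Nlrp10 went the other way at 1.62.

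For other cytokines, chemokines and antimicrobial genes it was -2.72 for Tnf, -1.61 for Csf2, -1.29 for Il24, -4.00 for Ccl7, -2.24 for Ccl2, -1.98 for Cx3cl1, -7.56 for Defb4, -3.91 for Defb3 and -3.61 for Defb14, with Ccl27a at 1.18 and Hmgb1 at 0.60. Il1f5, Il1f8, Defb3, Defb4 and Ccl7 had 1 to 3 counts in wild-type atRA+PKCi, so their fitted values depend on the prior count, and Defb3 passed the filter on low counts only through its FBS libraries. The ratio of Ccl7 counts, FBS over atRA+PKCi, was 23.0 (exact 95% interval 5.94 to 196) in wild-type and 1.28 (1.08 to 1.51) in cKO, and that of Defb3 was 256 (45.4 to 10138) and 14.4 (8.37 to 26.9).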

How the results depend on the processing

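No alternative turned the sign of a called member. Among those not called, the sign turned for the Il1r2 interaction without replicate 2 of wild-type atRA+PKCi (0.26 against -0.59, with a range of -2.88 to 0.26 over the libraries left out) and, in cultured cells, for Il33 in BMP2/4 against B-27 with no filter (0.09 against -0.09), and with RARi added for Il1a with no limit on mitochondrial UMIs (0.05 against -1.06) and for Il33 with the replicate block (0.18 against -0.55). The causes were not tested. The number of members called ranged, with each library left out in turn, from 8 to 10 for the wild-type medium contrast, 5 to 7 for cKO, 7 to 8 for the genotypes in FBS and 7 to 8 in atRA+PKCi, and stayed at 7 for the interaction. At an adjusted p under 0.01 and over 2-fold, the genotype comparison called 2 members in FBS and 5 in atRA+PKCi, beside 11% and 13% of all genes. With no filter on low counts, 1 member (Cxcl2) was called in cultured cells for BMP2/4 against B-27 and 1 for Rspo with BMP2/4 against BMP2/4. A single cell held 153 of the 162 Cxcl2 UMIs in BMP2/4 of mouse 2, and the highest cell held 24 of 68 in BMP2/4 of mouse 1. With the replicate block by mouse, 9, 7 and 7 members were called for the wild-type medium contrast, the cKO medium contrast and the interaction, as without it, and the block changed no other member's call. In cultured cells the correlation of same-mouse deviations ran from -0.340 to 0.289. Cxcl1 in atRA+PKCi lost its genotype call in limma (adjusted p = 0.0527 and 0.0529). Stricter limits on genes and mitochondrial UMIs could not be fitted in cultured cells, where too few cells remained. The 2 libraries per group limit each test, and low counts limit Il1b and Il1r2.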
